A study of Mus musculus with 12 samples.

Results

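The 9 genes described here encode regulators of muscle gene expression: *Mef2a*, *Mef2c* and *Mef2d*, *Myod1* and *Myf6*, *Eya1*, *Tbx15*, *Sox6* and *Maf*. They were chosen by name, and all 9 were listed, once each, among the 55367 gene symbols of every sample. RNA was sequenced from isolated myofibers of mouse skeletal muscle in 3 groups of 4 samples: Young fibers, and Fluo-4 normal and Fluo-4 abnormal fibers of aged mice. Per the study's methods, single fibers of the extensor digitorum longus (EDL) muscle were freed with collagenase and stained with the calcium indicator Fluo-4. The aged fibers were then separated under a fluorescence stereomicroscope by whether the stain was aberrant. The mice were C57BL/6 J, 26–28 months old for the aged fibers and 3–4 months old for the young fibers, and the labels name no transgene or drug in any group. Neither the labels nor the methods say how many fibers or mice were pooled into a sample, so the p-values measure the spread between these samples only. The aged fibers were sorted from aged muscle by the stain itself, so both aged groups share their age.

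An adult muscle fiber keeps its contractile type through transcription factors that act together on the same genes. The myogenic regulatory factors (MRFs) are basic helix-loop-helix proteins that bind the E-box, MEF2 proteins are MADS-box factors that bind AT-rich sites and work with the MRFs, and Eya1 is a coactivator that has no DNA-binding domain of its own and acts through DNA-binding partners. Sox6 represses slow-fiber genes, Tbx15 is a T-box factor of glycolytic fibers, and Maf belongs to the large Maf proteins, which activate the type IIb myosin gene *Myh4*.

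The 3 MEF2 genes code for proteins that share their DNA-binding start, and the beginning of each coding sequence is shown to let a reader see how far the transcripts differ. The first 90 coding bases of each canonical transcript (GENCODE vM39, GRCm39) are given 5′ to 3′, with capitals at the 27 positions where the 3 genes are not all identical.
Mef2a: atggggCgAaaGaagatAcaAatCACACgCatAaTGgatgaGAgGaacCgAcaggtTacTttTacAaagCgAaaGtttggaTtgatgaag
Mef2c: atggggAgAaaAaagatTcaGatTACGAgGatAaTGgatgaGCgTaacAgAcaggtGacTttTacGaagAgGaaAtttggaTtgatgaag
Mef2d: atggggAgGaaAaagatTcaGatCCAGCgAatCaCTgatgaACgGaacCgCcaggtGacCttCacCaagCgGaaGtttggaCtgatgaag
Over these bases *Mef2a* and *Mef2c* were 82.2% identical, *Mef2c* and *Mef2d* 78.9%, and *Mef2a* and *Mef2d* 76.7%. The longest stretch without a difference between any 2 of the 3 canonical transcripts was 28 bases, between *Mef2c* and *Mef2d*. None of the 9 members had a match of at least 95% identity over at least 100 bases in a transcript of another gene.

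The canonical starts of both MRF members lie outside any other annotated exon, and the 250 bases before each are shown because the windows of this pair differ in their motifs. Capitals mark E-boxes (CANNTG) and the TATA motif (TATAAA), both searched on either strand. The *Myod1* window is chr7:46025620-46025869 (GRCm39, plus strand) and the *Myf6* window is chr10:107330657-107330906 (minus strand).
Myod1: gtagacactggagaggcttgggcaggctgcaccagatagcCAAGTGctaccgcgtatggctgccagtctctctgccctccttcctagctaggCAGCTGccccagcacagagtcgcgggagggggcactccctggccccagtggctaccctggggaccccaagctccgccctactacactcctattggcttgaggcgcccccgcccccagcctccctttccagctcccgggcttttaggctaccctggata
Myf6: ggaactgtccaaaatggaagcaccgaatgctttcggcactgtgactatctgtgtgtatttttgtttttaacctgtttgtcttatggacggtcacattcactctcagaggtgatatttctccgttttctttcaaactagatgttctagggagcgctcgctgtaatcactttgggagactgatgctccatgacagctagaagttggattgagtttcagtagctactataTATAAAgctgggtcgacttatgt
*Myod1* had 2 E-boxes and no TATA motif, whereas *Myf6* had the TATA motif and no E-box. Of the 9 members, 4 had an E-box in this window (*Eya1*, *Myod1*, *Sox6* and *Maf*), and 64.8% of 21738 promoter windows did. The TATA motif stood in the windows of *Myf6* and *Maf* and in 11.9% of all windows. The MEF2 core (TATTTTTA) was in none of the 9 windows and in 2.09% of all windows. A match in a window is a description of these letters, and which start is used in these fibers is not known from the files.

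Positions of the genes are those of GENCODE vM39 on GRCm39. *Mef2a* (chr7:66880911-67022606), *Myf6* (chr10:107328712-107330656), *Eya1* (chr1:14239167-14380543), *Sox6* (chr7:115070106-115638860) and *Maf* (chr8:116409632-116434579) are on the minus strand. *Mef2c* (chr13:83652064-83815555), *Mef2d* (chr3:88049185-88079398), *Myod1* (chr7:46025870-46028526) and *Tbx15* (chr3:99147697-99294185) are on the plus strand. The exons of *Eya1*, *Myod1*, *Myf6* and *Mef2c* share no base with an exon of another annotated gene. Those of the other 5 overlap genes on the opposite strand, whose reads these unstranded libraries cannot tell apart: 6.97% of the exonic bases of *Mef2a* lie under *Lysmd4* (at most 15.3 TPM), 7.09% of *Mef2d* under 1700113A16Rik (at most 2.95 TPM) and 4.74% of *Maf* under Gm15655 (at most 3.57 TPM).

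Levels are given in TPM, the unit the authors calculated per gene, which divides reads by transcript length and scales each sample to a sum of 1000000. The files used here hold no counts, so the depth behind each level is unknown and counting intervals could not be given. Group differences are on the log2(TPM + 1) scale, with a standard error (SE) from a single limma fit of the 3 groups over 14427 genes. P-values were adjusted over all of these genes, and a gene was called at an adjusted p-value under 0.05. *Myh4* made up 93.7% to 99.7% of the summed TPM of *Myh1*, *Myh2*, *Myh4* and *Myh7* in the 12 samples, and the slow myosin gene *Myh7* reached at most 0.205 TPM.

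In young fibers the 9 genes fell into a high and a low set. *Mef2c* (164 ± 18.5 TPM, SD, n = 4), *Myf6* (159 ± 25.6) and *Tbx15* (157 ± 24.5) were the 3 highest, and their ranges overlapped. *Mef2d* followed at 43.0 ± 6.67 TPM, and its range lay below that of *Tbx15* in all 3 groups. *Sox6* (28.6 ± 5.81 TPM) and *Mef2a* (26.3 ± 3.04 TPM) overlapped each other, and *Myod1* (17.7 ± 2.85 TPM), *Eya1* (14.4 ± 0.937 TPM) and *Maf* (9.71 ± 1.33 TPM) came last. In both the Fluo-4 normal and the Fluo-4 abnormal fibers the order was the same except that *Mef2a* stood above *Sox6*, with overlapping ranges.

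**Figure D1:**
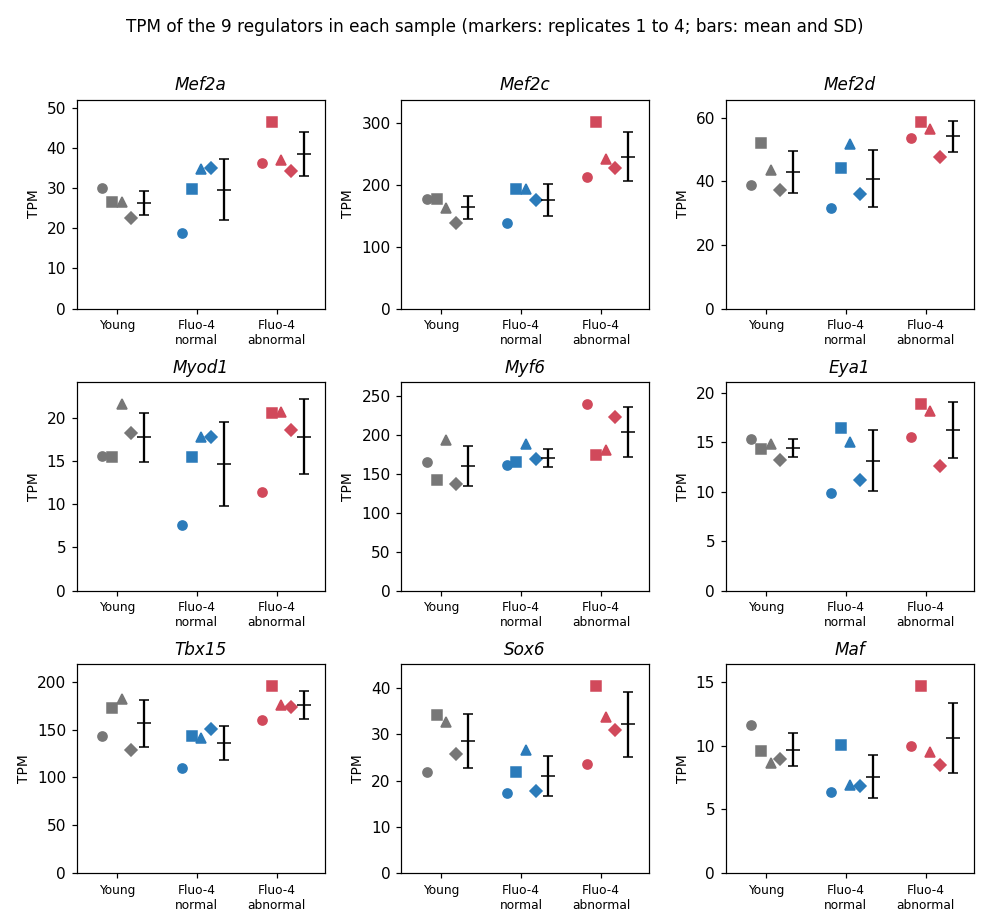
TPM (vertical axis, from 0) of the 9 genes in the 4 Young, 4 Fluo-4 normal and 4 Fluo-4 abnormal samples; marker shapes are replicates 1 to 4 and the black bars give the mean and SD. All 4 Fluo-4 abnormal samples of *Mef2c* (214 to 302 TPM) lie above all samples of the other groups, and replicate 1 of the Fluo-4 normal fibers is the lowest of its group in all 9 panels.

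In the fit without pairing, *Mef2c* was the one member of the 9 that passed the test between the aged groups (3 passed with the replicate number as a block: *Mef2c*, *Tbx15* and *Sox6*), and it was higher in the Fluo-4 abnormal fibers, where 7.36% of all genes tested were called higher and 1.99% lower. Its levels were 214, 302, 242 and 227 TPM in the Fluo-4 abnormal samples, 139, 193, 194 and 176 TPM in the Fluo-4 normal samples, and 178, 177, 163 and 138 TPM in the Young samples. Every abnormal sample was above every other sample, and the group mean was 1.40 times that of the normal fibers. The fitted log2 difference was 0.49 (SE 0.127, adjusted p = 0.0304 in limma, 0.0281 with the block), and the abnormal sample was higher in 4 of 4 pairs of the same replicate number. Against young fibers, with which the abnormal samples were compared a second time, *Mef2c* was called again, with a log2 difference of 0.58 (SE 0.127, limma adjusted p = 0.0145). Fluo-4 normal and young fibers differed in *Mef2c* by 0.09 (95% confidence interval −0.183 to 0.366), and their ranges overlapped.

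The call of *Mef2c* against the normal fibers depended on the scaling and on which samples were kept. With TMM-type factors, which centre the genes of each sample, the log2 difference was 0.26 (limma adjusted p = 0.119), and without the mitochondrially-encoded genes it was 0.43 (adjusted p = 0.0656). It was also not called without Fluo-4 normal replicate 1 (0.38, adjusted p = 0.0756) or Fluo-4 abnormal replicate 2 (0.38, adjusted p = 0.0924). Neither was it called without Fluo-4 abnormal replicate 3 (0.49, adjusted p = 0.0616) or Fluo-4 normal replicate 4 (0.49, adjusted p = 0.0606), though there the difference itself was no smaller. The call against young fibers held with TMM-type factors (0.40, adjusted p = 0.0142) and was lost only without Young replicate 4 (0.50, adjusted p = 0.0543) among 23 alternatives.

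The 2 other abundant MEF2 genes had values in the same direction that did not pass the test. *Mef2d* was at 53.7, 58.7, 56.6 and 47.6 TPM in the Fluo-4 abnormal samples, 31.5, 44.3, 51.7 and 36.0 TPM in the Fluo-4 normal samples and 38.9, 52.2, 43.7 and 37.3 TPM in the Young samples. The highest normal sample, replicate 3, exceeded the lowest abnormal sample, and the log2 difference between these groups was 0.42 (SE 0.143, limma adjusted p = 0.0846). Without Fluo-4 normal replicate 3 it was called (0.54, adjusted p = 0.0279). *Mef2a* was at 36.1, 46.4, 37.0 and 34.3 TPM in the Fluo-4 abnormal samples, 18.7, 29.7, 34.8 and 34.9 TPM in the Fluo-4 normal samples and 29.9, 26.5, 26.4 and 22.5 TPM in the Young samples. Normal replicates 3 and 4 were within the abnormal range and normal replicate 1 was far below it, and the log2 difference was 0.40 (SE 0.171, adjusted p = 0.156). Without Fluo-4 normal replicate 1 it was 0.21 (adjusted p = 0.350). Against young fibers the abnormal samples of *Mef2a* did not overlap, with a log2 difference of 0.53 (SE 0.171, adjusted p = 0.0739). It was called without Fluo-4 normal replicate 1 (adjusted p = 0.00938), a sample that enters this comparison only through the shared variance and the filter on low values.

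The share of *Mef2c* in the MEF2 family was similar in the 3 groups, while the summed level was higher in the abnormal samples. *Mef2c* held 72.5% ± 1.68 (SD, n = 4) of the summed MEF2 TPM in the Fluo-4 abnormal, 71.5% ± 1.84 in the Fluo-4 normal and 70.2% ± 1.28 in the young fibers, with overlapping ranges. Over all samples the share of *Mef2a* ran from 9.88% to 14.1% and that of *Mef2d* from 14.4% to 20.4%. The summed level was 304 to 407 TPM in the abnormal samples, 190 to 281 TPM in the normal samples and 198 to 256 TPM in the young samples. Most of this sum is *Mef2c*, and the sum was not tested apart from it or with other scalings. The remaining member, *Mef2b*, was between 0 and 0.337 TPM in every sample.

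*Myf6*, the main MRF of adult fibers, was far more abundant than *Myod1*, which directs myoblast determination. *Myf6* was at 239, 173, 180 and 222 TPM in the Fluo-4 abnormal samples, 161, 164, 188 and 168 TPM in the Fluo-4 normal samples and 165, 142, 193 and 137 TPM in the Young samples. Abnormal replicates 1 and 4 were above all other samples and abnormal replicates 2 and 3 were within the range of both other groups. The log2 difference was 0.24 against normal fibers (SE 0.121, limma adjusted p = 0.224) and 0.35 against young fibers (SE 0.121, adjusted p = 0.0920). The latter was called without Young replicate 3 (0.45, adjusted p = 0.0414).

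*Myod1* was at 11.4, 20.6, 20.6 and 18.6 TPM in the Fluo-4 abnormal samples, 7.54, 15.4, 17.8 and 17.7 TPM in the Fluo-4 normal samples and 15.6, 15.5, 21.5 and 18.3 TPM in the Young samples. Replicate 1 was the lowest sample in both aged groups, and all 3 groups overlapped. The log2 difference was 0.30 between abnormal and normal fibers (95% confidence interval −0.225 to 0.828, limma adjusted p = 0.474) and −0.02 between abnormal and young fibers (−0.542 to 0.510). The first was 0.03 without Fluo-4 normal replicate 1 (adjusted p = 0.944), 0.49 without Fluo-4 abnormal replicate 1 and 0.09 with TMM-type factors. *Myf6* held 87.2% to 94.7% of the summed TPM of the 4 MRFs over all samples. The other 2 MRFs were low: *Myf5*, a factor of muscle stem cells, was between 0.045 and 0.370 TPM, and *Myog*, a factor of differentiating myoblasts, between 0.817 and 3.47 TPM.

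*Tbx15* was at 160.15, 195, 175 and 174 TPM in the Fluo-4 abnormal samples, 110, 143, 141 and 151 TPM in the Fluo-4 normal samples and 144, 172, 182 and 129 TPM in the Young samples. All abnormal samples lay above all normal samples, whereas the young samples spanned both. The log2 difference between abnormal and normal fibers was 0.38 (SE 0.119, limma adjusted p = 0.0639), which did not pass the test, and it did with the replicate block (adjusted p = 0.0381). Among the 9 members, *Tbx15* and *Mef2c* had no overlap between these groups with the abnormal samples higher, as did 11.5% of all genes.

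*Sox6* was at 23.5, 40.4, 33.8 and 30.9 TPM in the Fluo-4 abnormal samples, 17.4, 21.9, 26.6 and 17.8 TPM in the Fluo-4 normal samples and 21.8, 34.2, 32.6 and 25.8 TPM in the Young samples. Only abnormal replicate 1 fell below the highest normal sample, and the abnormal and young ranges overlapped. The log2 difference between abnormal and normal fibers was 0.59 (SE 0.182, limma adjusted p = 0.0584; with the replicate block, 0.0425), the largest point estimate of the 9. It was called without Fluo-4 abnormal replicate 1 (0.73, adjusted p = 0.0221) and without Fluo-4 normal replicate 3 (0.71, adjusted p = 0.0320). *Sox6* exons share 261 bases with *Sox6os* and 228 bases with 1110004F10Rik, which reached 71.0 TPM, on the opposite strand.

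*Maf* was at 9.97, 14.7, 9.48 and 8.47 TPM in the Fluo-4 abnormal samples, 6.40, 10.1, 6.95 and 6.84 TPM in the Fluo-4 normal samples and 11.6, 9.61, 8.62 and 8.98 TPM in the Young samples. Replicate 2 was the highest in both aged groups, and all 3 groups overlapped. The log2 difference was 0.43 between abnormal and normal fibers (SE 0.173, limma adjusted p = 0.132) and 0.10 between abnormal and young fibers (adjusted p = 0.770).

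*Eya1* was at 15.5, 18.8, 18.1 and 12.6 TPM in the Fluo-4 abnormal samples, 9.88, 16.4, 14.98 and 11.2 TPM in the Fluo-4 normal samples and 15.4, 14.3, 14.8 and 13.2 TPM in the Young samples. The young samples lay within the range of the aged samples, whose spread was wider. The log2 difference between abnormal and normal fibers was 0.30 (95% confidence interval −0.0362 to 0.640, limma adjusted p = 0.249), and 0.19 without Fluo-4 normal replicate 1. *Six4*, which encodes a DNA-binding partner of Eya1, was at 1.27 to 4.24 TPM over all samples.

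**Figure D2:**
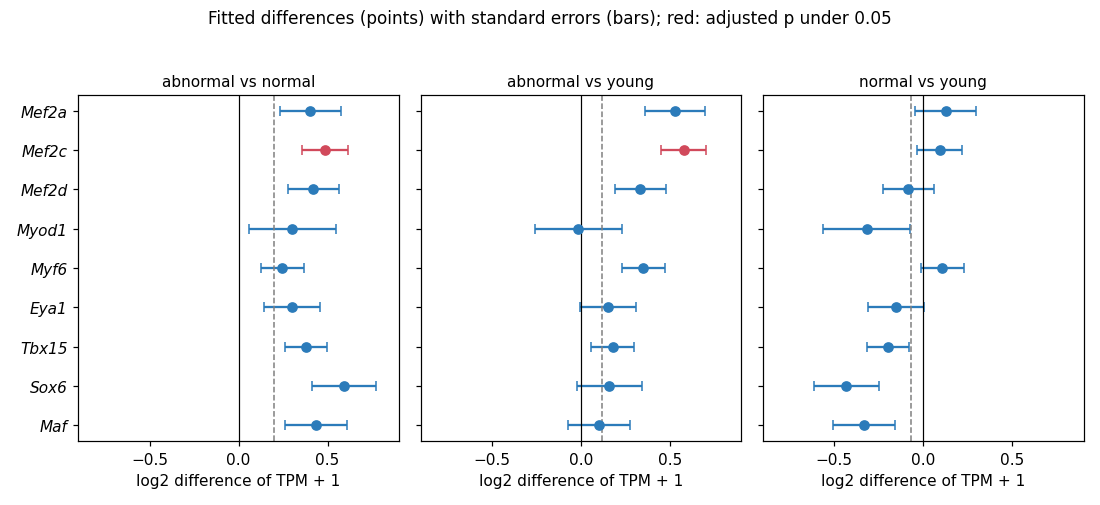
Fitted differences of log2(TPM + 1) with their standard errors (horizontal axis) for the 9 genes in the 3 comparisons; red points have a limma adjusted p-value under 0.05 and the dashed line is the median of the 5994 genes with a mean of at least 5 TPM. *Mef2c* is red in both comparisons with the abnormal fibers, and all 9 points lie above 0 and above the dashed line in the abnormal against normal panel.

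Between the aged groups, abnormal minus normal, the fitted difference was above 0 for all 9 members, with a median of 0.40, and it stayed above 0 for each of them under all 23 alternatives. Those that changed only the filter, the block, the groups fitted or the Young samples could not move this difference. Most other genes were also above 0: 69.6% of all genes tested had a positive difference, with a median of 0.10, and 78.3% of the 5994 genes with a mean of at least 5 TPM did, with a median of 0.20. Of those 5994 genes, 14.1% were called higher, beside 1 of the 9 members. With TMM-type factors the median of all genes was 0, that of the 9 members was 0.18, and 0 of them were called in limma (2 at an unadjusted p under 0.05, and 1 and 6 of 9 without these factors). Without these factors, 3693 of the 14427 genes tested were at an unadjusted p under 0.05. That number is not given for the fits with TMM-type factors, with the replicate block or with 1 sample left out. With TMM-type factors 306 genes were called higher and 542 lower, in place of 1062 and 287.

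The aged samples carry replicate numbers, and same-numbered abnormal and normal samples deviated together from their group means (r = 0.302 to 0.438 over 5994 genes, against −0.365 to 0.234 for different numbers). Deviations within a group of 4 sum to 0 for each gene, so positive values for equal numbers pull those for different numbers down. The latter are therefore not an independent reference. The abnormal sample was higher in all 4 pairs for 7 of the 9 members and in 3 of 4 pairs for *Mef2a* and *Myf6*. The share of all genes higher in all 4 pairs was not computed, so this count is not set apart from them. Of the 5994 genes with a mean of at least 5 TPM, 78.3% had a positive fitted difference. With the replicate number as a block, 3 members were called in limma: *Mef2c* (adjusted p = 0.0281), *Tbx15* (0.38, SE 0.0666, adjusted p = 0.0381) and *Sox6* (0.59, SE 0.110, adjusted p = 0.0425). *Maf* was next, at an adjusted p of 0.0552. The block called 918 genes higher over the whole table. With both the block and the TMM-type factors, an alternative chosen after seeing the data, 0 of the 9 were called in limma (5 at an unadjusted p under 0.05, adjusted p = 0.0850 for *Mef2c*) and 150 genes were called higher.

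**Figure D3:**
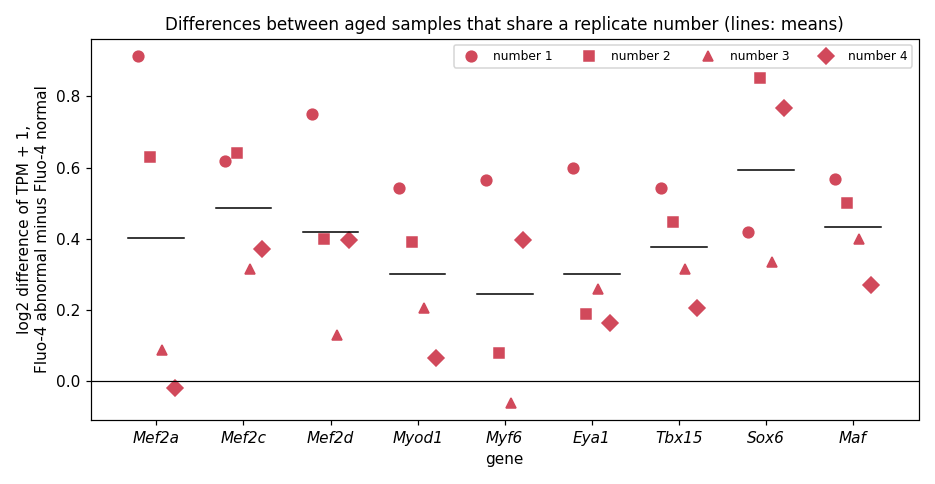
Difference in log2(TPM + 1) between the aged samples of each replicate number, abnormal minus normal (vertical axis) for the 9 genes; marker shapes are numbers 1 to 4 and black lines are means of the 4 pairs. Points below 0 occur for *Mef2a* (number 4, −0.0209) and *Myf6* (number 3, −0.0608).

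A pair of samples stood apart across the members. Fluo-4 normal replicate 1 was the lowest of its group for all 9 members and the lowest of all 12 samples for 7, and Fluo-4 abnormal replicate 2 was the highest of all 12 samples for 7. These samples also had the lowest (0.809) and the highest (1.17) TMM-type factor, against 0.908 to 1.09 in the other 10. Without Fluo-4 normal replicate 1, or without Fluo-4 abnormal replicate 2, 0 of the 9 members were called between the aged groups in limma (4 and 5 at an unadjusted p under 0.05). Of all genes tested, 6.53% and 4.61% were called in these fits. With all 12 samples, 3693 of the 14427 genes tested were at an unadjusted p under 0.05 between the aged groups.

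**Figure D4:**
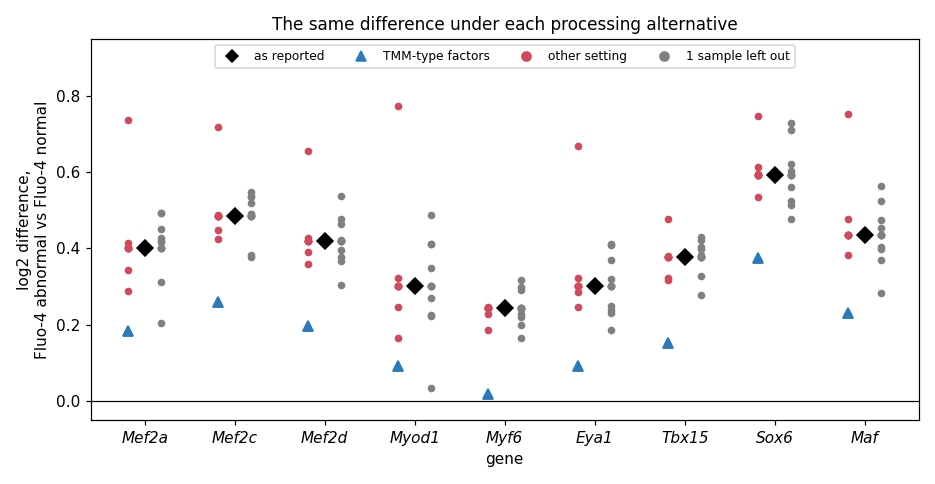
Log2 difference between Fluo-4 abnormal and Fluo-4 normal fibers (vertical axis) of the 9 genes as reported (black), with TMM-type factors (blue), under the other settings (red) and with 1 sample left out (grey). Every point lies above 0, and the blue points lie below the black ones, between 0.02 for *Myf6* and 0.37 for *Sox6*.

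Against young fibers, the Fluo-4 abnormal fibers had 1 of the 9 members called, *Mef2c*, where 6.09% of all genes tested were called higher and 2.41% lower. *Mef2c* and *Mef2a* had no overlap between these groups with the abnormal samples higher, as did 12.2% of all genes. The log2 differences of the other members were 0.33 for *Mef2d*, 0.18 for *Tbx15*, 0.16 for *Sox6* and 0.15 for *Eya1*, and those of *Eya1*, *Sox6* and *Maf* were below 0 with TMM-type factors.

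Between the Fluo-4 normal and the young fibers, 0 of the 9 members were called in limma (1 at an unadjusted p under 0.05), where 0.561% of all genes were called higher and 0.589% lower. That member was *Sox6*, with a log2 difference of −0.43 (95% confidence interval −0.824 to −0.0409, adjusted p = 0.323). The differences ran from −0.43 for *Sox6* and −0.33 for *Maf* to 0.13 for *Mef2a*, and 6 of the 9 were below 0. The groups overlapped for all 9, whereas 3.03% of all genes were higher and 4.96% lower with no overlap. Of the 14427 genes tested, 1865 were at an unadjusted p under 0.05 between these groups.

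Myosin make-up, a measure of fiber type, is given beside these values. *Myh4* held 98.9% to 99.7% of the summed myosin TPM of the abnormal fibers, 93.7% to 99.2% of that of the normal fibers and 96.9% to 98.5% of that of the young fibers. *Myh1*, the type IIx myosin gene, was at 44.3 to 147 TPM in the abnormal, 46.2 to 542 TPM in the normal and 147 to 262 TPM in the young samples. With the *Myh4* share as a covariate, the log2 difference of *Mef2c* between the aged groups was 0.72 (SE 0.163, limma adjusted p = 0.0336), and *Eya1* was called as well (0.67, SE 0.178, adjusted p = 0.0482). The adjusted p-values of this fit for the other 7 members were between 0.0590 and 0.430. Of all genes, 5.68% were called in it, and their median difference was 0.165. Fluo-4 normal replicate 1, the lowest of its group for all 9 members, had a *Myh4* share of 99.2%, within the abnormal range. How far this fit leans on that sample was not tested.

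Most defining markers of other cells were low, but not all. The erythroid genes *Hba-a1* and *Hba-a2* reached 106 and 159 TPM in the normal samples, and the smooth muscle gene *Acta2* reached 37.1 TPM in the young samples. The 8 smooth muscle markers summed to 3.79 to 13.2 TPM in the abnormal, 5.36 to 23.5 TPM in the normal and 4.69 to 70.3 TPM in the young samples. The lists did not all stay without calls. None of the endothelial, fibro-adipogenic, smooth muscle, Schwann and erythroid lists had a gene called between the aged groups in limma (0 of 40, with 1 at an unadjusted p under 0.05). Of all genes tested, 9.35% were called between these groups, and 6.09% were called higher in abnormal than in young fibers. Between the aged groups, 3693 of the 14427 genes tested were at an unadjusted p under 0.05. Against young fibers, 2 of the 7 Schwann markers were called higher in the abnormal fibers: *Mbp* (1.60, limma adjusted p = 0.00648, at most 5.43 TPM) and *Sox10* (0.28, adjusted p = 0.0214, at most 0.341 TPM). Of the 9 immune markers tested, 1 was called: *Cd3e*, a T cell receptor subunit gene, at 2.10 to 4.86 TPM in the abnormal, 0.608 to 0.854 TPM in the normal and 0.780 to 1.54 TPM in the young samples (log2 difference between the aged groups 1.20, SE 0.191, adjusted p = 0.00294). *Lyz2*, a myeloid gene, was higher in both aged groups than in young fibers (by 2.38 for abnormal and 2.19 for normal fibers), and the leukocyte marker *Ptprc* reached at most 0.262 TPM. The 11 immune markers summed to 10.5 to 18.7 TPM in the abnormal, 6.90 to 22.2 TPM in the normal and 2.38 to 4.59 TPM in the young samples. Of the 12 muscle stem cell markers, 1 was called, the desmin gene *Des* (0.38, adjusted p = 0.0280, and 0.478 with TMM-type factors), which fibers also express, and *Pax7* reached at most 0.109 TPM. The 5 erythroid markers summed to 44.4 to 236 TPM in the abnormal and 118 to 482 TPM in the normal samples, and the 10 endothelial markers to 12.5 to 81.5 and 47.8 to 143 TPM. In RNA of whole samples, fewer cells of a type and less RNA per cell cannot be told apart. The 10 myofiber markers, which include the abundant *Acta1* and *Ckm*, summed to 155600 to 176300 TPM in the abnormal and 131500 to 152200 TPM in the normal samples. The part of these levels in the members' differences was not tested.

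Other genes of these regulatory pathways were read from lists. The median log2 difference between the aged groups was −0.01 for the MRF list, 0.21 for the MEF2 list, 0.17 for the relatives and partners of *Eya1*, 0.32 for the Maf, Sox and Tbx relatives and 0.29 for other fiber-type regulators, beside 0.10 for all genes. Between the aged groups, 1 of 14 genes of the MRF family and its partners was called, higher in the abnormal fibers, and 2 of 22 genes of the MEF2 family, cofactors and repressors were called, both higher. Of all genes tested, 7.36% were called higher, and 14.1% of those with a mean of at least 5 TPM. *Twist1*, a repressor of MRF activity, was at 1.18 to 2.22 TPM in the abnormal and 0.432 to 0.895 TPM in the normal samples (log2 difference 0.69, SE 0.158, limma adjusted p = 0.0166). *Smarcd3*, a chromatin remodelling subunit that works with MyoD, was at 119 to 154 TPM and 96.4 to 113 TPM (0.36, SE 0.0875, adjusted p = 0.0227). *Mrtfb*, a coactivator of serum response factor, was at 2.86 to 4.49 TPM and 0.876 to 2.04 TPM (0.74, SE 0.187, adjusted p = 0.0258). With TMM-type factors *Twist1* and *Mrtfb* were still called and *Smarcd3* was not (0.13, adjusted p = 0.515), and with the replicate block *Mrtfb* was not (adjusted p = 0.0549). Each of *Smarcd3* and *Mrtfb* lost its call when any of 4 single samples was left out, the same 4 that ended the call of *Mef2c* (adjusted p up to 0.0716 and 0.0834), and *Twist1* lost its call without Fluo-4 abnormal replicate 2 (adjusted p = 0.0526).

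Of the 9 genes in the list of *Eya1* relatives and partners, 1 was called, beside 7.36% of all genes called higher: *Eya4*, a relative of *Eya1*. It was at 12.5, 14.3, 10.9 and 10.3 TPM in the Fluo-4 abnormal, 3.65, 5.49, 6.86 and 5.49 TPM in the Fluo-4 normal and 7.09, 8.69, 6.55 and 4.35 TPM in the Young samples. The abnormal samples were above all others, with a log2 difference of 1.04 against normal (SE 0.197, limma adjusted p = 0.00667) and 0.78 against young fibers (SE 0.197, adjusted p = 0.0274). The first of these was called in 22 of 23 alternatives, including TMM-type factors (0.84, adjusted p = 0.00751). The call against young fibers was lost without Young replicates 1, 3 or 4 or Fluo-4 abnormal replicates 1 or 2 (0.62 to 0.82, adjusted p = 0.0538 to 0.0812).

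Among the Maf, Sox and Tbx relatives, 2 of the 13 genes tested were called, both higher in the abnormal fibers. The share called higher was 7.36% over all genes and 14.1% over those with a mean of at least 5 TPM. *Mafa*, a large Maf protein like Maf, was at 21.4, 32.7, 31.9 and 30.2 TPM in the Fluo-4 abnormal, 12.1, 17.6, 19.4 and 17.2 TPM in the Fluo-4 normal and 24.2, 25.1, 24.7 and 22.9 TPM in the Young samples. The log2 difference between the aged groups was 0.77 (SE 0.147, limma adjusted p = 0.00683), the groups did not overlap, and the call held in 22 of 23 alternatives. *Mafg*, a small Maf protein without an activation domain, was at 24.1 to 31.6 TPM in the abnormal and 13.3 to 24.0 TPM in the normal samples (0.58, SE 0.157, adjusted p = 0.0360). Its call held in 10 of 23 alternatives and not with TMM-type factors, nor without Fluo-4 normal replicates 1, 2 or 4 or Fluo-4 abnormal replicates 2, 3 or 4 (0.42 to 0.62, adjusted p = 0.0534 to 0.0926).

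Of 24 other fiber-type regulators, 1 was called between the aged groups, and it was lower in the abnormal fibers, as were 1.99% of all genes tested. *Esrrg*, a nuclear receptor of oxidative fibers, was at 0.443 to 0.860 TPM in the abnormal and 1.44 to 3.14 TPM in the normal samples (log2 difference −0.93, SE 0.182, limma adjusted p = 0.00823). With TMM-type factors the difference was −1.04, and with the *Myh4* share as a covariate it was −0.59 and not called (adjusted p = 0.137).

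Of the 16 fast-fiber contractile and glycolytic genes, 4 were called, all higher in the abnormal fibers: *Mybpc2*, *Casq1*, *Actn3* and *Myh4*. The share called higher was 7.36% over all genes and 14.1% over those with a mean of at least 5 TPM. The median of the list was 0.14, beside 0.20 for the latter genes, and 4 of the 16 were below 0, down to −1.81 for *Myh1* (not called). *Mybpc2*, the fast myosin-binding protein C gene, had a log2 difference of 0.69 (SE 0.0792, limma adjusted p = 0.000517), and *Actn3*, which encodes an actin cross-linker of fast fibers, one of 0.77 (SE 0.148, adjusted p = 0.00727). *Casq1*, the calcium store protein of the fast sarcoplasmic reticulum, differed by 0.50 (SE 0.0717, adjusted p = 0.00174). It was lower in Fluo-4 normal than in young fibers (−0.68, adjusted p = 0.000421), and abnormal and young fibers differed by −0.18 (adjusted p = 0.149). *Pgam2*, a glycolytic gene of this list, was lower in Fluo-4 abnormal than in young fibers (−0.42, adjusted p = 0.0344, and 0.0546 with TMM-type factors). *Myh4* differed between the aged groups by 0.66 (SE 0.158, adjusted p = 0.0198). With TMM-type factors *Mybpc2* was still called (adjusted p = 0.0190) and *Casq1*, *Actn3* and *Myh4* were not. *Myh4* was not called without Fluo-4 normal replicate 1 (adjusted p = 0.0507) or Fluo-4 abnormal replicates 2 (0.0680) or 3 (0.0542). Of the 10 slow-fiber contractile genes, 1 was called: *Atp2a2*, the slow-fiber calcium pump gene, at 3.01 to 6.54 TPM in the abnormal and 1.01 to 2.75 TPM in the normal samples (0.95, SE 0.249, adjusted p = 0.0296). This call was lost without Fluo-4 normal replicates 1 or 2 or Fluo-4 abnormal replicates 2, 3 or 4 (0.77 to 0.99, adjusted p = 0.0535 to 0.0963). In the young samples *Atp2a2* was at 2.19 to 4.68 TPM, and abnormal and young fibers differed by 0.50 (limma adjusted p = 0.249).

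In the comparisons with young fibers the calls of the regulator lists were mostly of other genes, which are named here after their values were seen. *Id2*, an inhibitor of basic helix-loop-helix proteins, was lower in both aged groups, by a log2 difference of −1.70 in the abnormal (SE 0.229, limma adjusted p = 0.000757) and −1.29 in the normal fibers (SE 0.229, adjusted p = 0.0173). *Six2* was lower in the normal fibers (−1.37, adjusted p = 0.0215), and *Msc*, *Prox1* and *Esrra* were lower in the abnormal fibers (−0.88, −0.22 and −0.41). Neither *Msc* nor *Prox1* had a group mean of 5 TPM, and the size of their differences depended on the pseudocount. With a pseudocount of 0.1 they were −2.05 for *Msc*, which was then not called (limma adjusted p = 0.0649), and −1.22 for *Prox1*. *Tle1*, a corepressor gene, was higher in the abnormal fibers (0.62, adjusted p = 0.00540). The calls of *Id2* and *Esrra* held with TMM-type factors, and that of *Tle1* did not (adjusted p = 0.0527). The call of *Id2* in the normal fibers was lost without Young replicates 1, 2 or 3 (adjusted p = 0.0505 to 0.0666), and that of *Six2* when any of these or Fluo-4 normal replicate 4 was left out (0.0514 to 0.0855). *Esrra* was not called without Young replicate 4 (adjusted p = 0.0547), and *Msc* lost its call when any of 8 single samples was left out, with adjusted p from 0.0504 to 0.111.

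The 3 genes with a mean of at least 5 TPM whose pattern was most like that of *Mef2c* over the 12 samples were *Micu3* (Pearson r = 0.973), *Nedd4* (0.972) and *Eif3c* (0.964), of 5993 searched. Without the 2 samples farthest from the median of *Mef2c* the values were 0.954, 0.965 and 0.945. The 12 points include the 3 groups and their scaling, so these are given as a description. *Micu3* encodes a regulator of mitochondrial calcium uptake, *Nedd4* a ubiquitin ligase and *Eif3c* a subunit of a translation initiation factor.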

How the data were processed

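Total RNA of isolated myofibers (TRIzol, DNase, column clean-up) was made into libraries with SMART-Seq v4 from 10 ng per sample. The authors aligned the reads to GRCm39/mm39 with DRAGEN 4.3 and deposited 1 table of TPM per gene symbol and sample. The gene annotation release is not given in the sources used here. Each table held 55487 entries and summed to 1000000 TPM, which keeps no depth. The 114 symbols on several lines were summed, and 21428 symbols were protein-coding or mitochondrially encoded by GENCODE vM39 or RefSeq names.

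Log2(TPM + 1) of 14427 such genes with a group mean of at least 0.02 TPM was fitted with limma 3.58.1 (R 4.3.3, variance trend, Benjamini-Hochberg adjustment), with all 12 samples in 1 fit. The fit was tested on simulated data: for the abnormal against normal comparison of 14427 genes with 200 changed, 92% of the 2-fold and 98% of the 4-fold changes were called. The changes were placed only in the better expressed genes, and the noise was drawn independently for each gene and sample. No change as small as those of the members (log2 0.24 to 0.59) was simulated, so these rates do not say how often such changes would be called. Groups come from the sample titles. Replicate numbers are shared by the groups, and neither the labels nor the methods say that a number marks a mouse. The aged groups were taken as paired because every same-numbered pair had a correlation of deviations over 0.1 (lowest 0.302). The young and aged groups were not, because theirs ran from −0.0807 to 0.228. This pairing entered only the fits with a replicate block. The main fit ignored it, so p-values given without a named alternative are unpaired. The alternatives rescaled the TPM (by TMM-type factors with trims of 30% and 5%, or without mitochondrially-encoded genes), changed the pseudocount to 0.1, changed the filter (none, 5 TPM, or all annotated entries), or changed the model. The models had a replicate block, weights for sample quality, the share of *Myh4* as a covariate or only the groups compared. Each sample was also left out in turn.

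Named are all 9 members, their remaining family members, *Six4*, the 4 myosin genes, up to 4 called genes per regulator or contractile list with the smallest p between the aged groups, and the 3 genes most like a called member. A further gene of this rule is not reported here. The members and lists were chosen with earlier results of these data known. Promoter and coding sequences were read from GRCm39 at GENCODE vM39 canonical transcripts, and copies in other genes were sought with BLAST 2.17.0. Python 3.11.15 was used with numpy 2.4.6, pandas 2.3.3 and matplotlib 3.10.9.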

Additional observations from a re-analysis of the deposited data

Results flagged for a closer look

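Of 27 groups of 4 samples (9 members in 3 groups), 1 had a sample far from the others: *Maf* in Fluo-4 normal replicate 2, at 10.1 TPM, with a gap to the next sample of 0.849 of the group's range. Chance alone flags about 1 in 20 groups. That sample also held the highest summed endothelial (143 TPM), fibro-adipogenic (109.6 TPM), immune (22.2 TPM), smooth muscle (23.5 TPM), Schwann (16.3 TPM) and erythroid (482 TPM) markers of its group, and their part in this value was not tested.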

How the results depend on the processing

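Of 621 values of the 9 members over 23 alternatives and 3 comparisons, 577 kept their direction and their side of the threshold, 15 changed direction, 10 lost and 19 gained a call. Alternatives that changed only the filter, the block or the groups fitted, or left out a sample of a group not compared, could not change a direction. Between abnormal and normal fibers, the count of members called was 1, where 9.35% of all genes were called. It became 0 with TMM-type factors, without the mitochondrially-encoded genes, with all annotated entries, with only the groups compared and with the replicate block plus TMM-type factors (3.36% to 6.59% of all genes called). The count became 2 with a pseudocount of 0.1 (9.51%) and with the *Myh4* share (5.68%), 3 with the replicate block (7.97%) and 4 with a filter of 5 TPM, where 26.9% of 6348 genes were called. It was 0 to 3 with 1 sample left out (4.61% to 10.1%). Between abnormal and young fibers the count (1, where 8.5% of all genes were called) became 3 with the filter of 5 TPM (21.1%). It became 2 with only the groups compared (8.75%), quality weights (11.9%) and the *Myh4* share (8.96%), and was 0 to 2 with 1 sample left out (4.18% to 11.6%). Between normal and young fibers it became 1 (*Sox6*, limma adjusted p = 0.0420) with the replicate block, where 2.22% of all genes were called, though these numbers share no more than a label. It stayed at 0 with 1 sample left out. Against young fibers, TMM-type factors, with or without the replicate block, turned *Eya1* to −0.0135, *Sox6* to −0.00922 and *Maf* to −0.0582, and the *Myh4* share turned *Myod1* to 0.228. With 1 sample left out, *Myod1* ranged from −0.0947 to 0.171 and *Maf* from −0.05003 to 0.192. Between normal and young fibers the *Myh4* share turned *Mef2a* to −0.0365 and *Mef2c* to −0.0209, and *Mef2d* ranged from −0.204 to 0.0289 with 1 sample left out. The cause of these changes was not tested. Beside the calls of *Tbx15* and *Sox6* in the paired comparison, the block changed no other member's call. TPM keeps no depth, so the precision that read counts allow is unknown.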
